A study of Mus musculus with 4 samples.

Results

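A set of 37 genes that build the junctions, the keratin cytoskeleton and the microvilli of intestinal epithelial cells was followed across 4 Affymetrix expression arrays. The set comprised 8 claudins, 7 other tight junction proteins, 3 cell adhesion proteins, 8 desmosome proteins, 4 keratins, 4 microvillus proteins and 3 polarity proteins. Its members were chosen by gene symbol out of 18193 genes named on the array, and they were carried by 70 of 45037 probe sets. A probe set is the group of short array probes that together report on 1 transcript.

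The study asked how a Lactobacillus strain, NK318.1 (L.NK.1), associated with the gut lectin REG3γ, enlarges anti-inflammatory macrophage pools and bears on obesity. In search of a mechanism, its arrays followed this single strain in mice that otherwise carry no microbes. The 4 arrays held RNA of Peyer's patch cells and of intestinal epithelial cells (IECs), each from germ-free (GF) C57BL/6 mice and from GF C57BL/6 mice monocolonized with NK318.1. Colonized mice received 100000000 bacteria and were sampled 2 weeks later, and all mice lived in vinyl isolators, so that the colonized mice carried this 1 strain and no other microbes. No dose, vehicle or sham treatment is given for the GF mice. Each array carried RNA pooled from several mice (n = 6 in the study's legend, which also places the epithelial cells in the ileum), and there was 1 array a group. There were therefore no replicates, no error could be attached to any value, and no p-value was computed, so that each ratio compares 2 pools.

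Neighbouring epithelial cells are held together by belts of junctions below the apical surface. Tight junctions, made of claudins, occludin and MARVEL proteins tied to the cytoskeleton by scaffold proteins, seal the space between cells and set which ions pass. Cadherins and desmosomes bear the mechanical load, with keratin filaments anchored in the desmosomes. At the apical surface, villin and other proteins shape the actin bundles of the microvilli, and the polarity complexes keep the apical and basolateral surfaces apart.

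Each value is a linear MAS5 signal, a probe set's brightness in arbitrary units after background correction, and the median signal over all probe sets lay between 23.0 and 23.3 on the 4 arrays. A floor of 15.5, the median over the arrays of the 40th percentile, marked low signals. Signals under it were raised to it before a log2 ratio was taken. The floor was a chosen percentile and not a measurement of background. A gene counted as measured in a comparison when at least 1 of its 2 arrays lay above the floor, and a gene was said to rise or fall when its signals were at least 2-fold apart. Where a gene had several probe sets, the one with the highest mean log2 signal over the 4 arrays represented it. Signals under the floor counted in that mean, so it was not always the brightest in epithelial cells. Signals of different genes come from different probes and cannot be ranked against each other.

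The members set the epithelial arrays apart from the Peyer's patch arrays, although the colonized epithelial array also carried markers of stomach and pancreas that are given further on. All but 1 member lay above the floor on both epithelial arrays, 36 of 37 on each, while 19 of 37 lay above it on the GF Peyer's patch array and 17 of 37 on the colonized one. Of all genes, 73.7% and 73.6% lay above the floor on the GF and colonized epithelial arrays, and 68.4% and 68.5% on the corresponding Peyer's patch arrays. Cldn1, a claudin of barrier epithelia, lay under the floor on all 4 arrays with its representative probe set, and none of its 4 probe sets passed the floor on any array. Enterocyte markers summed to 145 and 157 in GF and colonized Peyer's patch cells, against 35842 and 25611 in the epithelial cells, and leukocyte markers to 28460.0 and 29424 against 1165 and 499.

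In GF mice, 35 of 36 measured members were at least 2-fold higher in epithelial cells than in Peyer's patch cells and 0 were 2-fold lower, while 16% of all 14036 measured genes were 2-fold higher and 18.5% were 2-fold lower. The members' median log2 ratio was 4.76, against 0.038 over all genes. Many of these ratios are lower bounds, since only 19 members were above the floor on both arrays, and the median over those 19 was 3.48. In colonized mice, 33 of 36 were 2-fold higher and 0 were 2-fold lower, where 18.4% of all 14030 genes were 2-fold higher and 16.8% were 2-fold lower. The median was 4.05, again with many bounds, or 3.23 over the 17 members above the floor on both arrays, against 0.11 over all genes. These ratios share arrays with the comparisons of colonized with GF mice described further on.

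The keratins were measured in epithelial cells and, but for Krt20 in GF mice, lay under the floor in Peyer's patch, so that their ratios are lower bounds. Krt8, the type II keratin of simple epithelia, was at least 552-fold higher in epithelial cells of GF mice and at least 528-fold higher in those of colonized mice, the Peyer's patch signals lying under the floor. Pkp3, a plakophilin of the desmosomal plaque, was the 1 member that was not higher in GF epithelial cells, with 187 in Peyer's patch and 122 in epithelial cells (log2 ratio −0.61). In colonized mice its log2 ratio was 0.060, and Marveld2 (1.30-fold) and Ppl (1.81-fold) also lay short of 2-fold there.

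**Figure D1:**
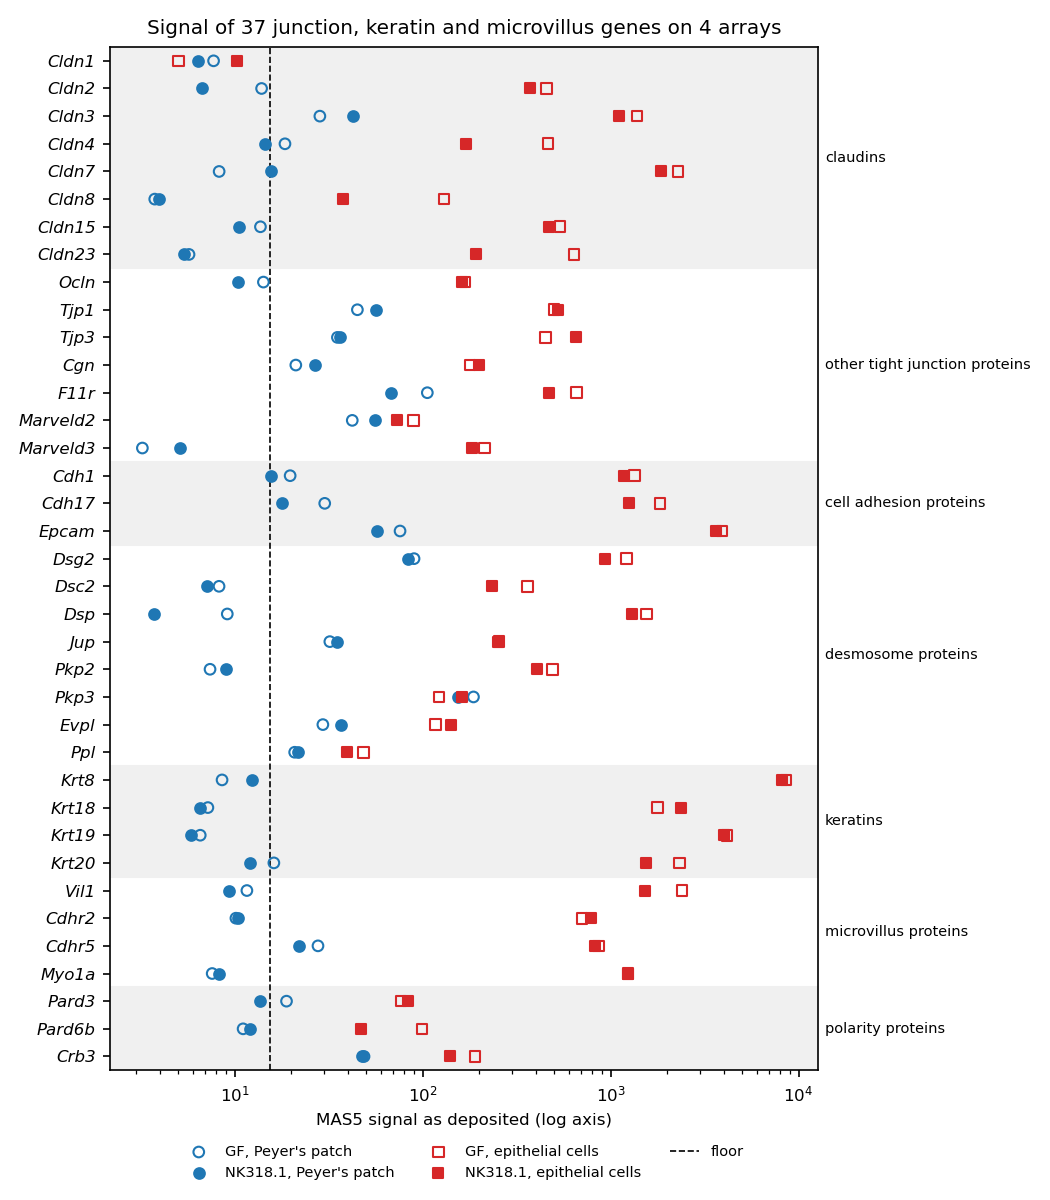
MAS5 signal of each of the 37 members on the 4 arrays, on a logarithmic axis (arbitrary units), with members grouped by role; circles are Peyer's patch, squares epithelial cells, open symbols GF and filled symbols colonized mice, and the dashed line is the floor of 15.5. The squares lie far to the right of the circles for nearly every member, except Pkp3, whose 4 signals lie between 122 and 187, and Cldn1, which stays under the floor.

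Between colonized and GF mice, the epithelial arrays held all the member calls. In epithelial cells 4 of 36 measured members (11.1%) fell at least 2-fold in colonized mice, where 1.54% of all 13874 measured genes did, and 0 rose, where 2.63% of all genes did. The members that fell were the claudins Cldn8, Cldn23 and Cldn4 and the polarity gene Pard6b. Below 0 lay 28 of 36 members (77.8%), against 47.6% of all genes, and the members' median log2 ratio was −0.24, against 0.019 over all genes. In bulk samples such as these, fewer cells of a type and less RNA per cell cannot be told apart.

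In Peyer's patch cells, 0 of 20 measured members rose and 0 fell, where 0.149% of all 12736 measured genes rose and 0.573% fell. Below 0 lay 11 of the 20, 57.2% of all genes lying below 0, and the members' median was −0.047, against −0.033 over all genes. Of the 20, 16 were above the floor on both arrays. The range of the members' log2 ratios was −0.76 to 0.59.

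**Figure D2:**
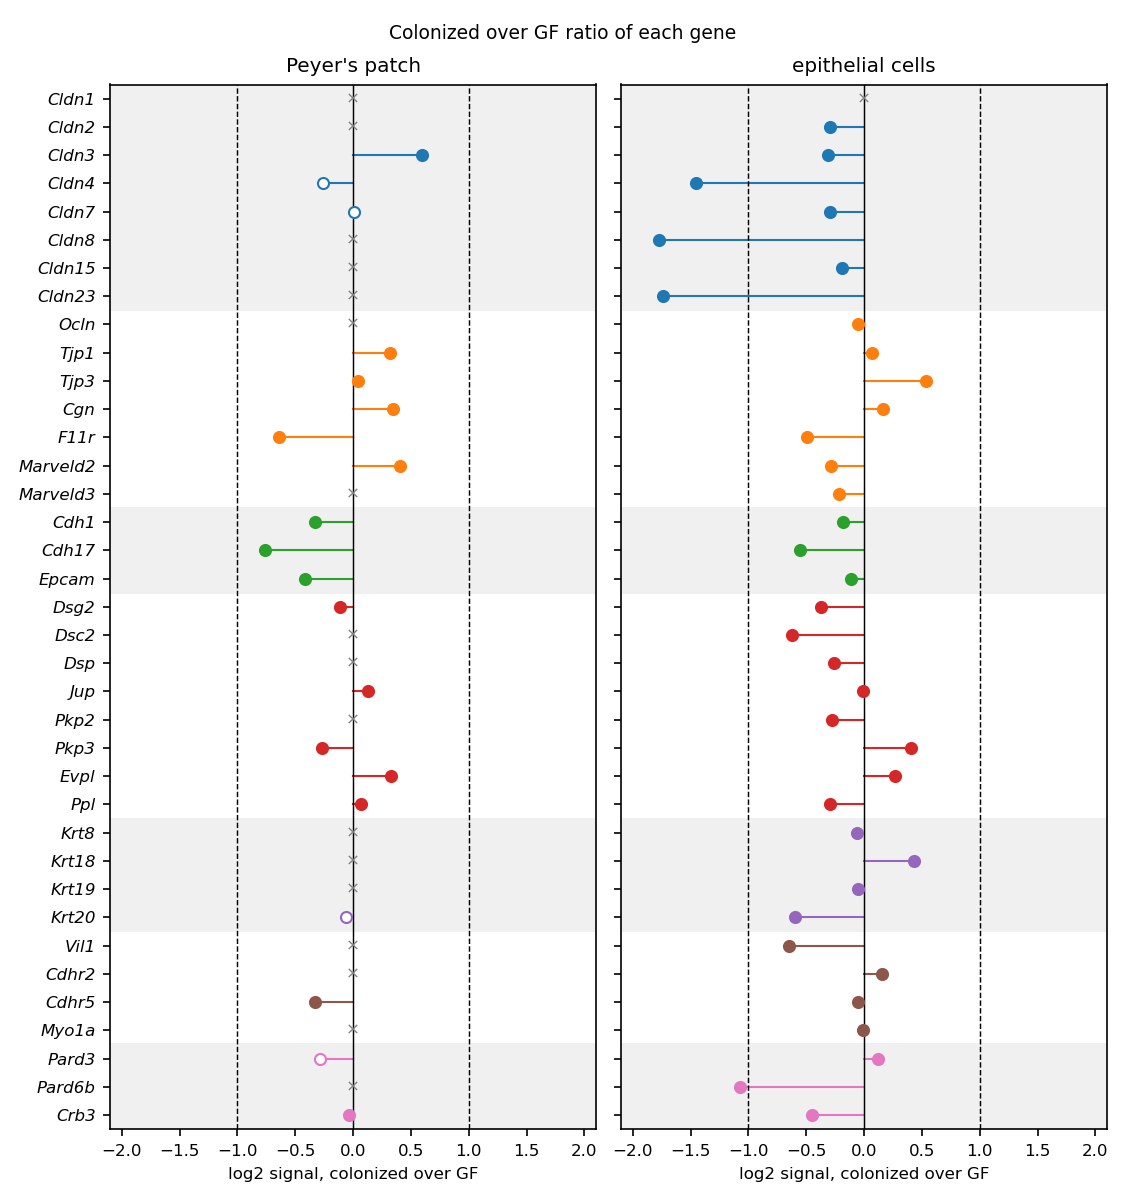
Log2 ratio of colonized over GF mice for each member in Peyer's patch cells (left panel) and epithelial cells (right panel), with dashed lines at the 2-fold limits; open circles have 1 array under the floor and crosses have both. In epithelial cells Cldn8, Cldn23, Cldn4 and Pard6b lie beyond the lower limit, and in Peyer's patch cells no member passes either limit.

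The claudins are the membrane proteins that set the permeability of the tight junction. All 7 measured claudins lay below 0 in epithelial cells, with a median log2 ratio of −0.31, and 3 of them fell. Cldn8, which tightens the barrier of the distal gut, read 129.9 in epithelial cells of GF mice and 38.0 in those of colonized mice, and lay under the floor on both Peyer's patch arrays. That was a 3.42-fold fall, a log2 ratio of −1.77, and placed Cldn8 at rank 40 from the lowest of 13874 genes. Cldn23, a claudin of surface epithelium, had 638 in GF and 192 in colonized epithelial cells, again with both Peyer's patch signals under the floor. It fell 3.33-fold (log2 ratio −1.74, rank 42). Cldn4, a barrier-forming claudin, gave 18.6 on the GF Peyer's patch array, less than the floor on the colonized one, 466 in GF epithelial cells and 171 in colonized epithelial cells. Its fall was 2.73-fold (−1.45, rank 75), and in each of these genes the GF epithelial array was the highest of the 4.

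The other 4 measured claudins stayed within 1.24-fold in epithelial cells with their representative probe sets. Cldn3, a sealing claudin, gave 1382 in GF and 1115 in colonized epithelial cells, a log2 ratio of −0.31. Its other probe sets ran from −0.67 to −0.25 in epithelial cells. In Peyer's patch it gave 28.4 and 42.9, the largest positive ratio of any member there (0.59), while its other 2 measured probe sets gave 0 and 0.21. Cldn7, which lies along the basolateral membrane, gave 2289.9 and 1861 (−0.30). Cldn2, which forms a pore for cations and water and lies on chromosome X, gave 455 and 372 (−0.29), its second probe set reading −0.45. The sodium pore Cldn15 gave 539 and 472 (−0.19). Each of these was lower on the colonized array, by less than 2-fold.

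Cldn4 and Cldn3 are neighbours on chromosome 5 with 0 protein-coding genes between them. Their epithelial log2 ratios were −1.45 and −0.31 with the representative probe sets. Their promoter windows are printed here beside that of Pard6b, the other gene that fell for which a window was at hand. The sequences come from RefSeq on build GRCm38.p6 and run from 250 bases before the gene start to 50 after it. Cldn4 lies at chr5:134946885-134947184 on the minus strand, Cldn3 at chr5:134985964-134986263 on the plus strand, and Pard6b at chr2:168080754-168081053 on the plus strand. Capitals mark the GC box, spelled GGGCGG on one strand and then CCGCCC on the other, and the CCAAT box, which reads ATTGG on the other strand, and both strands were searched.
Cldn4 promoter: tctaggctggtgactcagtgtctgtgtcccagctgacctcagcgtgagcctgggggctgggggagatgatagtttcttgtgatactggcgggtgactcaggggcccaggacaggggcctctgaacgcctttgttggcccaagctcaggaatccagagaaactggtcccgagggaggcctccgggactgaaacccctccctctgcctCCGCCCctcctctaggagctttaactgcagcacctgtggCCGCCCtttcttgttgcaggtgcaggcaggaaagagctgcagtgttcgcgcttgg
Cldn3 promoter: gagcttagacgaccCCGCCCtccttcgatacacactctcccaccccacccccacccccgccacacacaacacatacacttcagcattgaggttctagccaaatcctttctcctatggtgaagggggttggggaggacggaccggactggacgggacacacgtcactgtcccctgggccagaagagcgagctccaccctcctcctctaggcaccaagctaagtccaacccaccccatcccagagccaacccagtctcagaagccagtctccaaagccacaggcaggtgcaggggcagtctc
Pard6b promoter: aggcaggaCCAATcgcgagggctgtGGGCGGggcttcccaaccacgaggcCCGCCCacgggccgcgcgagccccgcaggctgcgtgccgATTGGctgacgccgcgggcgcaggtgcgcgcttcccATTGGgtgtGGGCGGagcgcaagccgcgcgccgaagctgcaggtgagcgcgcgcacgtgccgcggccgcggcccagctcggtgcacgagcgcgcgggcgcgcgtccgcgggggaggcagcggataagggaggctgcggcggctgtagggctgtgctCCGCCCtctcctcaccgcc

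The Cldn4 and Cldn3 windows were alike in base composition, at 61% and 60.7% GC with 9 CpG each, and held 2 and 1 GC boxes. The Pard6b window was 77% GC with 47 CpG, 4 GC boxes and 3 CCAAT boxes, against a median GC content of 52.7% over all 32851 windows. A window was at hand for 25 members off chromosome 18. Of these, 17 (68%) held a GC box, as did 35.7% of all windows, and 7 (28%) held a CCAAT box, as did 37.4% of all. Here and below, members were counted by gene and the background by window, whatever its gene. The shares are therefore not strictly alike, and no enrichment was tested. TATAAA was in 5 of the 25 and in 13.6% of all windows. The grainyhead motif AACCNGTT was in 1 (Cgn) and in 2.09% of all, the HNF4 core motif CAAAGTC in 1 (Cdhr2) and in 4.44%, and the CDX motif TTTATNG in 2 (Epcam and Krt20) and in 10.9%. TATAAA read on the other strand can overlap TTTATNG. A match is a run of letters and not a bound site, and no match says only that these letters are not in this window.

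Of the 7 other tight junction proteins, 3 lay above and 4 below 0 in epithelial cells, and none rose or fell. Their median of −0.050 is the value of Ocln, whose probe sets differed. Tjp1 (ZO-1), the scaffold that ties claudins to actin, gave 45.0 in GF and 56.3 in colonized Peyer's patch cells (log2 ratio 0.32), and 502 and 527 in the epithelial cells (0.071). Tjp3 (ZO-3), a scaffold of the same family, gave 35.3 and 36.3 in Peyer's patch (0.042), then 452 and 657 in epithelial cells (0.54), the highest epithelial ratio among the members. Cgn, the cytoplasmic plaque protein cingulin, gave 21.2 and 26.9 in Peyer's patch (0.34), then 179 and 200.5 in epithelial cells (0.17). All 3 of these plaque proteins lay above 0 in both tissues, none of them by 2-fold with the representative probe set.

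Ocln, the membrane protein occludin, was under the floor in Peyer's patch and gave 168 in GF and 162 in colonized epithelial cells (−0.050). Its second probe set, the brighter one in epithelial cells, read 287 and 183 (−0.65), so the 2 probe sets differ in size. Next to Ocln on chromosome 13, with 0 protein-coding genes between, lies Marveld2, the tricellulin of 3-cell corners. Marveld2 gave 42.3 and 56.1 in Peyer's patch (0.41), then 89.3 and 73.1 in epithelial cells (−0.29). Marveld3, another MARVEL protein, was under the floor in Peyer's patch and gave 214 and 184 in epithelial cells (−0.22). F11r (JAM-A), an immunoglobulin-like adhesion protein of the tight junction, was lower on the colonized array in both tissues, with 106 and 68.1 in Peyer's patch (−0.64), then 661 and 469 in epithelial cells (−0.50).

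The 3 cell adhesion proteins lay below 0 in both tissues, with medians of −0.41 in Peyer's patch and −0.19 in epithelial cells, and none fell 2-fold. Cdh17, the liver-intestine cadherin, gave 30.2 in GF and 17.8 in colonized Peyer's patch cells, and 1835 and 1249 in the epithelial cells. Its log2 ratios of −0.76 and −0.56 were the lowest of the 3, and the former was the lowest of any member in Peyer's patch. Epcam, an epithelial adhesion protein that stabilises claudins, gave 75.9 and 57.0 in Peyer's patch (−0.41), then 3926 and 3623 in epithelial cells (−0.12), its second probe set reading 0.20 in epithelial cells. Cdh1, the E-cadherin of the adherens junction, gave 19.8 and 15.7 in Peyer's patch, the second just above the floor, and 1344 and 1182 in epithelial cells (−0.33 and −0.19).

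Of the 8 desmosome proteins, 6 lay below 0 and 2 above in epithelial cells, none 2-fold apart, with a median of −0.27. The desmosomal cadherin Dsg2 gave 90.2 and 83.2 in Peyer's patch (−0.12), then 1216 and 939.5 in epithelial cells (−0.37). Its other measured probe sets in Peyer's patch read 0.017, 0.18 and, with the GF signal under the floor, 0.25. Dsg2 had 6 probe sets, which read from −1.19 to −0.18 in epithelial cells, and the lowest of them, with 248 and 109, passed the 2-fold limit. Dsc2, the desmocollin that pairs with Dsg2, gave 361 and 234 (−0.62). Both cadherins were lower on the colonized epithelial array with every probe set.

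Among the plaque proteins, Dsp (desmoplakin), which links desmosomes to keratin, gave 1550.3 and 1298 (−0.26), and Pkp2 gave 492 and 405 (−0.28). Dsc2, Dsp and Pkp2 were all under the floor in Peyer's patch with these probe sets. For both Dsp and Pkp2 another probe set lay slightly above 0, at 0.0078 for Dsp and up to 0.048 for Pkp2, so their direction depended on the probe set. Jup (plakoglobin) was nearly level, with 32.1 and 35.1 in Peyer's patch (0.13), then 255 and 253 in epithelial cells (−0.0098). Pkp3 gave 187 and 155 in Peyer's patch (−0.27), then 122 and 162 in epithelial cells (0.40), where its second probe set read −0.32. The plakins Evpl and Ppl also serve the cornified envelope of skin. Evpl (envoplakin) gave 29.5 and 37.04 in Peyer's patch (0.33), then 117 and 141 in epithelial cells (0.27), and Ppl (periplakin) gave 20.9 and 21.9 in Peyer's patch (0.066), then 48.5 and 39.6 in epithelial cells (−0.29).

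The keratins were close to level by median (−0.058 in epithelial cells), with Krt18 above 0 and 3 below. Krt8 gave 8561 in GF and 8188 in colonized epithelial cells (−0.064). Krt18, its type I filament partner and its neighbour on chromosome 15 with 0 protein-coding genes between, gave 1772 and 2384 (0.43). Krt19, another type I keratin of simple epithelia, gave 4159.9 and 4011 (−0.053). These 3 lay under the floor on both Peyer's patch arrays. Krt20, the keratin of differentiated villus cells, gave 16.2 in GF Peyer's patch, less than the floor in colonized Peyer's patch, and in epithelial cells 2328 and 1541 (−0.59).

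Of the microvillus proteins, Vil1 (villin), which bundles actin in the microvillus core, gave 2398 in GF and 1529 in colonized epithelial cells (−0.65), or 1.57-fold lower. Myo1a, the motor that tethers the core to the membrane, gave 1237 and 1232 (−0.0055). The protocadherins Cdhr2 and Cdhr5, which link microvillus tips to each other, gave 704 and 783 (0.15) and 862 and 830.4 (−0.054). Only Cdhr5 passed the floor in Peyer's patch, with 27.8 and 22.1 (−0.33). Villin was thus the member of this group with the lowest ratio, and the other 3 lay between −0.054 and 0.15.

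The polarity proteins include 1 of the genes that fell. Pard6b, the adaptor of the apical PAR complex, gave 99.4 in GF and 47.3 in colonized epithelial cells and was under the floor in Peyer's patch. It fell 2.1-fold (−1.07, rank 171 of 13874), and its second probe set, with 82.5 and 38.5, read −1.10. Pard3, the scaffold of the same complex, gave 18.9 in GF Peyer's patch, less than the floor in colonized Peyer's patch, and in epithelial cells 76.7 and 83.2 (0.12). Its 4 probe sets ran from −0.59 to 0.29 and so did not share a direction. The brightest of them in epithelial cells, with 113 and 94.3, read −0.26. Crb3, the Crumbs protein of the apical membrane, gave 48.9 and 47.8 in Peyer's patch (−0.033), then 190.0 and 139 in epithelial cells (−0.45). Its other probe sets read −0.14 and −0.28 in epithelial cells, and 0.15 and 0.23 in Peyer's patch. The brightest of the Crb3 probe sets in epithelial cells, with 236 and 214, was the one at −0.14.

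Where members had several measured probe sets, the range of their log2 ratios showed how far probe sets of a gene disagreed on the same 2 arrays. It does not measure scatter between pools. In epithelial cells 16 members had more than 1, and for 11 of them all probe sets had the same sign, with a median range of 0.37 on the log2 scale. The widest range was 1.08, for Cgn, whose second probe set read 29.5 in GF and 69.9 in colonized epithelial cells, 1.24 on the log2 scale. In Peyer's patch 2 of 6 such members shared a sign, with a median range of 0.32. Cldn4, Cldn8 and Cldn23 had 1 probe set each, so no second reading of their falls exists on these arrays. Over single probe sets, 6 of 64 fell and 1 rose in epithelial cells, where 1.39% of all 24337 measured probe sets fell and 2.68% rose.

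**Figure D3:**
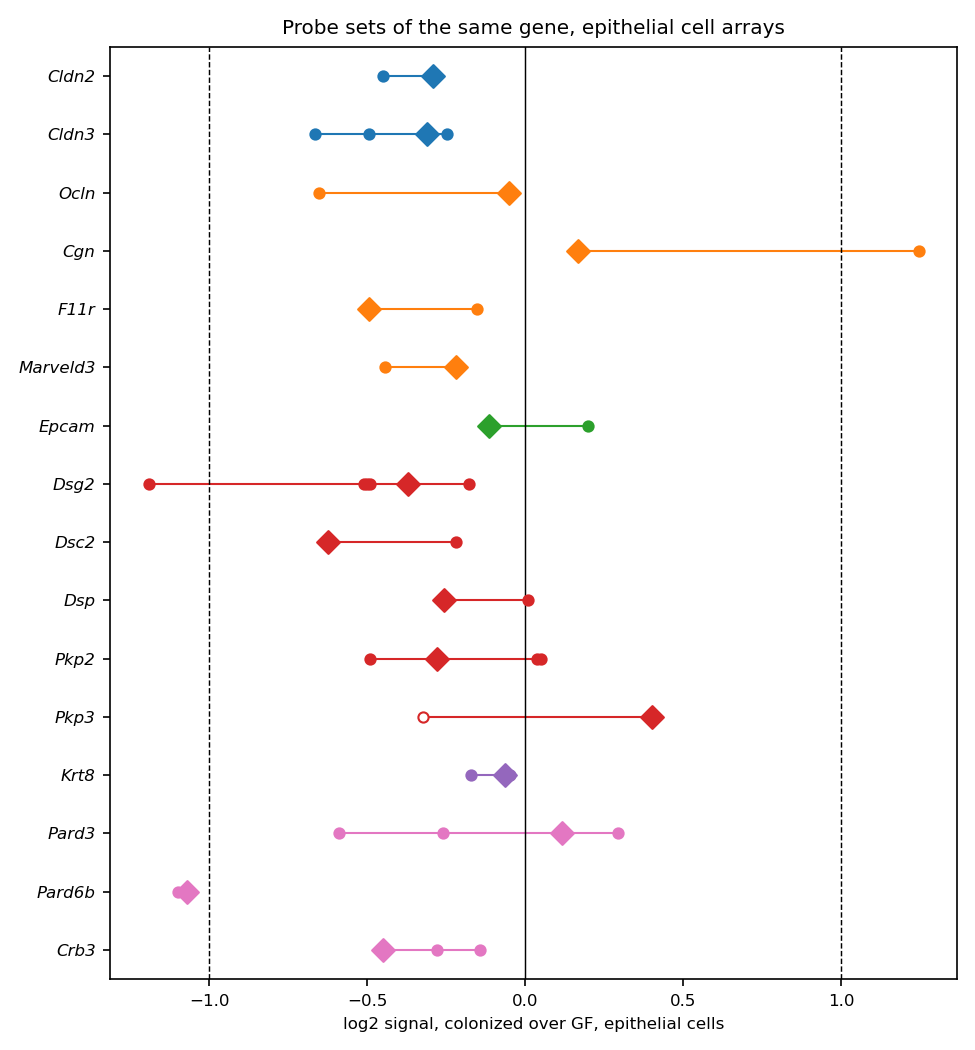
Log2 ratio of colonized over GF epithelial cells for every probe set of the 16 members with more than 1 measured probe set; diamonds are the representative probe sets, circles the others, and open symbols have an array under the floor. The Pard6b probe sets lie together near −1.1, those of Cgn lie 1.08 apart, and those of Pard3 lie on both sides of 0.

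The members' ratios were not spread evenly. In epithelial cells 14 of 36 (38.9%) lay within 0.25 of 0 on the log2 scale, against 49.8% of all genes, and 32 of 36 (88.9%) lay within 1, against 95.8%. In Peyer's patch 7 of 20 (35%) lay within 0.25, against 76.7% of all genes, where the members' signals were low. The lower and upper quartiles over all genes in epithelial cells were −0.23 and 0.28, and the members' median of −0.24 lay near the lower one. No test of the members as a group was run.

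**Figure D4:**
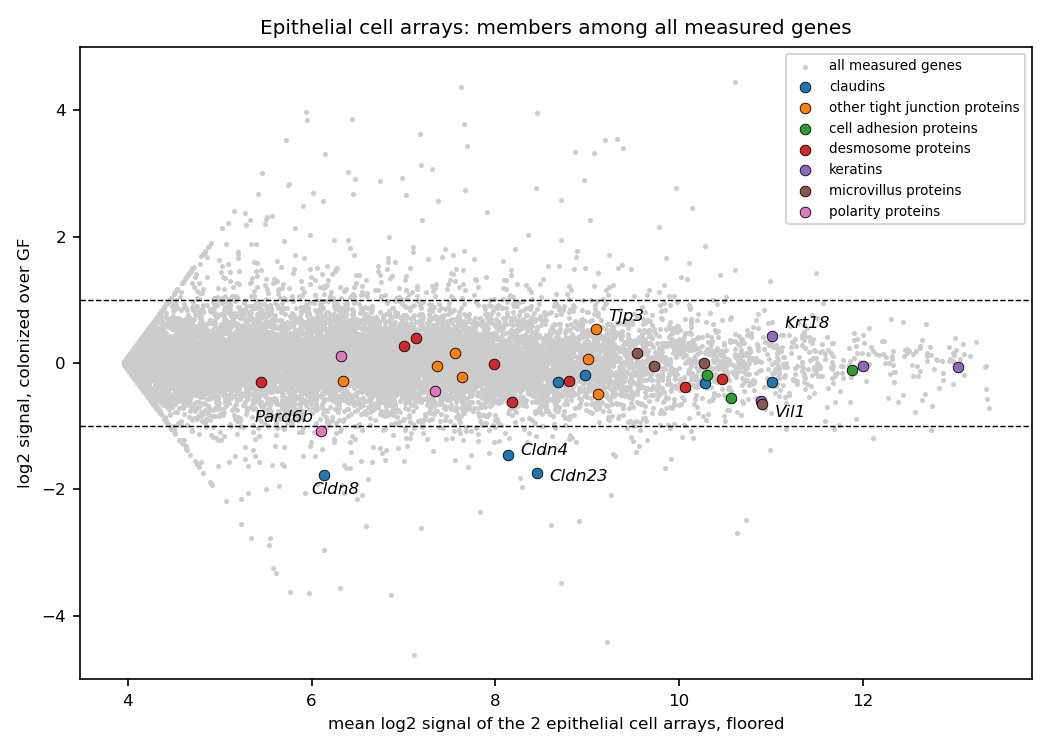
Log2 ratio of colonized over GF epithelial cells against mean signal (logarithmic axis, arbitrary units) for all measured genes (grey) and the 36 measured members (coloured), with dashed lines at the 2-fold limits; 10 genes lie outside the plotted range of −5 to 5. Cldn8, Cldn23, Cldn4 and Pard6b lie below the lower limit, and most other members lie slightly below 0.

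A wider list of 80 junction, keratin, microvillus and polarity genes, of which 77 had a probe set of their own, held few calls. Of 65 measured in epithelial cells, 1 rose and 1 fell (1.54%), where 2.63% of all genes rose and 1.54% fell. The median was 0.00016, with 33 above and 32 below 0, or −0.10 over the 60 genes above the floor on both arrays. In Peyer's patch 0 of 54 rose and 0 fell (median 0.0074), where 0.149% of all genes rose and 0.573% fell. Cldn18, the claudin of the stomach and lung, rose at least 8.00-fold in colonized epithelial cells, from a GF signal under the floor to 124. Pdzk1, a microvillus scaffold for transporters, fell 2.16-fold, from 406 to 188 (−1.11).

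By role, the wider list did not move as 1 block. Of 14 other microvillus genes, 12 lay below 0 in epithelial cells with a median of −0.41, among them the actin bundler Pls1 (−0.97), the trafficking motor Myo5b (−0.76), the actin capper Eps8 (−0.73) and the membrane linker Ezr (−0.58). Of 10 other polarity genes, 8 lay above 0 with a median of 0.13, and the Pard6b paralogs Pard6a and Pard6g read −0.12 and 0.55. Of 9 other claudins, 8 lay above 0 with a median of 0.22, but most of these signals lay near or under the floor. Over the 6 above the floor on both arrays the median was 0.13. Cldn12, with signals far above the floor, gave 264 in GF and 216 in colonized epithelial cells (−0.29), and the 7 member claudins also lay below 0. Differences between these lists were not tested.

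Further epithelial lists were set beside the members, in a comparison where 2.63% of all genes rose, 1.54% fell and 47.6% lay below 0. None of 13 intestinal epithelial transcription factors rose or fell (median −0.17), and none of 10 goblet cell genes (median 0.18). Of 13 brush border peptidases and amino acid transporters, 5 fell and 13 lay below 0, with a median of −0.91. The members' median of −0.24 lay between these.

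**Figure D5:**
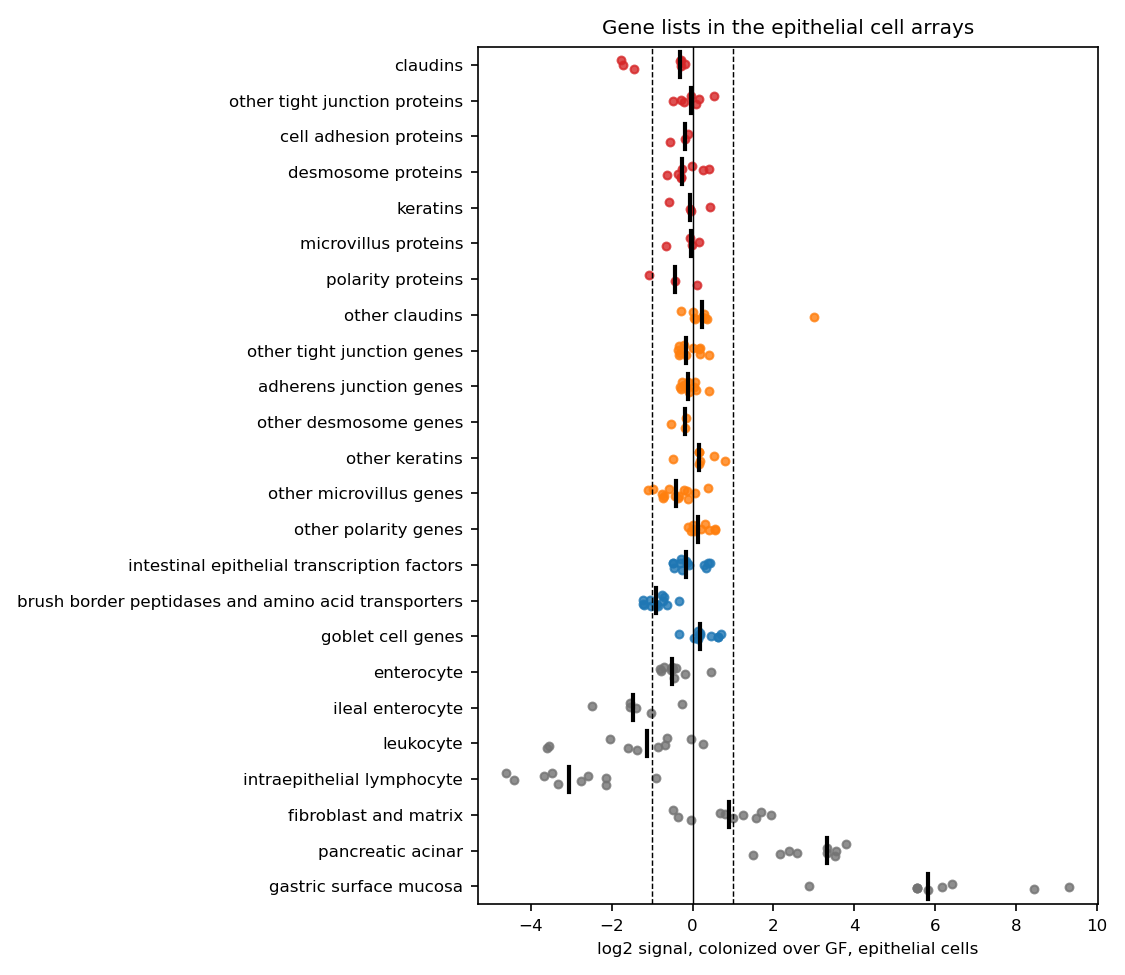
Log2 ratio of colonized over GF epithelial cells for each gene of the members (red), the wider lists (orange), the comparison lists (blue) and the cell type marker lists (grey), with black bars at the medians. The member claudins lie entirely below 0, the brush border list has a median of −0.91, and the gastric and pancreatic marker lists lie far above 0.

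Several other measures differed between the same epithelial arrays. Beside the counts that follow, 2.63% of all genes rose and 1.54% fell. Markers of gastric surface mucosa summed to 439 in GF and 36156 in colonized epithelial cells, with 9 of 9 measured rising and the defining Gkn1, Gkn2 and Anxa10 under the floor in GF mice, and markers of pancreatic acinar cells to 1811 and 12627, with 9 of 9 rising. Of 10 intraepithelial lymphocyte markers, 9 fell (sums 6063 and 464), and of 10 leukocyte markers 5 fell. Of 11 enterocyte markers 0 fell, with a median of −0.50. On a list of 6 ileal enterocyte genes 5 fell (sums 5471 and 1327), the bile acid binding protein Fabp6 among them (log2 ratio −2.48). Of 10 fibroblast and matrix markers 4 rose (561 and 1447), and none of 4 measured endothelial markers did. The members' own signals summed to 41825 and 36798. The part of each of these in the members' ratios was not tested.

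RNA quality and sex also differed. For β-actin, the 3′ probe set over the 5′ one, a quotient that grows as RNA breaks down, was 2.73 in GF and 4.10 in colonized epithelial cells, against 1.60 and 1.74 in Peyer's patch, and its part in the members' ratios was not tested. Xist, made from the inactive X chromosome of females, read 21.7 and 46.7 on the GF arrays and 4586 and 4889 on the colonized arrays of Peyer's patch and epithelial cells. The Y-linked gene Eif2s3y read 300.1 and 147 on the GF arrays and under the floor on both colonized arrays. The methods state gender-matched mice, and on these arrays colonization and sex cannot be told apart.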

How the data were processed

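Total RNA was extracted with Trizol and hybridised as biotinylated cRNA. The authors deposited 1 table of linear intensity values per probe set, made with MAS5 according to the submitters' notes. The MAS5 settings used were not stated. Of the probe sets, 64 controls, 9160 without a gene and 932 naming several genes were left out. The study's limma test could not be repeated with 1 array a group, so the 2-fold limit alone was used.

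Ratios, floors and counts were computed in Python 3.11.15 (numpy 2.4.6, pandas 2.3.3, matplotlib 3.10.9), and the procedure was tested on simulated data. Every member was named, of the wider list each gene at least 2-fold apart between colonized and GF mice in either tissue, and of the marker lists the genes a result needed. Other wider-list genes were named after their values were seen. Members and lists were chosen with earlier results of these data known, from general knowledge, and the ileal list was added last. Alternatives were other scalings, floors, probe set rules and fold limits. Depth does not apply to arrays, and their number limits the precision.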

Additional observations from a re-analysis of the deposited data

How the results depend on the processing

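No paired analysis was possible because a single array stood for each group. Of 88 counts of members recomputed under other settings, 76 stayed at the reported count or within 1.5 times it, and 12 moved. Most of the reported counts were 0, and a 0 that stayed 0 is among the 76. Other fold limits and single probe sets also change what is counted. The tally is therefore a weak check of the counts. In Peyer's patch 2 members were lower with no floor (0.478% of all genes), and with a limit of 1.5-fold 1 was higher and 2 lower (0.927% and 2.74% of all genes). In epithelial cells 7 members were lower at 1.5-fold and 0 at 4-fold, where 6.8% and 0.209% of all genes were. With no floor 1 was higher (2.42% of all genes), as was 1 of 64 with each probe set on its own (2.68% of all probe sets). Of members higher in epithelial cells than in Peyer's patch, single probe sets gave 57 of 64 in GF and 55 of 64 in colonized mice (13.9% and 15.8% of all probe sets). Counting only members above the floor on both arrays, chosen after seeing the data, gave 18 of 19 and 14 of 17 (14% and 16.2% of all genes). At 1.5-fold 1 member was lower in GF epithelial cells than in Peyer's patch (28.4% of all genes). Cldn8 (−1.86 to −1.77), Cldn23 (−1.76 to −1.70) and Cldn4 (−1.47 to −1.42) were 2-fold lower in all 9 settings with the 2-fold limit. The reported setting is 1 of the 9. These claudins had 1 probe set each and epithelial signals above every floor used, so only the other scalings could change their ratios. Pard6b (−1.14 to −1.07) was 2-fold lower in all 8 settings that could use it, again with the reported one. The Pard6b probe sets carry the suffixes _a_at and _s_at. With all probe sets of these suffixes or of _x_at left out, Pard6b could not be read. In that setting 3 of 28 members fell (1.54% of all genes). Quantile normalization moved the median of all genes between the cell types of GF mice from 0.038 to 0.16. Signals near the floor, as most members had in Peyer's patch, limit what a ratio there can show.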

Other observations

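In GF mice 4 of 65 measured genes of the wider list (6.15%) were at least 2-fold lower in epithelial cells than in Peyer's patch. Of all genes, 18.5% were. Cldn5, the claudin of endothelium, gave 69.4 in GF and 91.8 in colonized Peyer's patch and 21.9 on both epithelial arrays, or 3.16-fold and 4.18-fold lower in epithelial cells. Dsc3, a desmocollin of stratified epithelia, gave 53.8 and 34.7 in Peyer's patch and lay under the floor in epithelial cells, at least 3.47-fold and 2.24-fold lower. Pard6g gave 89.7 in GF and 81.2 in colonized Peyer's patch cells, against 31.2 and 45.6 in the epithelial cells. Cdh5, the cadherin of endothelium, gave 66.2 and 35.9 in Peyer's patch, was under the floor in GF epithelial cells and read 20.4 in colonized ones, at least 4.27-fold lower in GF and 1.76-fold lower in colonized mice. These genes were chosen after their values were seen.

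Magi3, a tight junction scaffold, gave 58.5 in GF and 116 in colonized Peyer's patch, a log2 ratio of 0.99 just short of the 2-fold limit, and 320.1 and 250.3 in epithelial cells (−0.35). Krt7, a keratin of ducts and the stomach, was under the floor in Peyer's patch and gave 337 in GF and 591 in colonized epithelial cells (0.81).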
